A study of Mus musculus with 6 samples.

Results

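The genes of TGF-beta ligands, receptors and regulators described here are Tgfb1, Tgfb2, Tgfb3, Ltbp1, Tgfbr1, Tgfbr2, Tgfbr3, Smad3, Skil and Tgfbi. They are a fixed list of 10 symbols, matched to the symbol column of the count files, out of 40879 symbols in all. All 10 were found, and all 10 had enough counts to be tested. They were measured in cells labelled as primary hepatic stellate cells, the retinoid-storing pericytes of the liver. The cells came from wild-type male mice and were kept for 24 h with vehicle (3 libraries) or with APB-R3 (3 libraries), an engineered interleukin-18 binding protein. APB-R3 is given at 150 µg/ml in the series text and at 150 µg/kg in the sample protocol, so the unit of its dose is not settled. The labels name no other agent, no age and no transgene, and nothing in them ties the replicates to separate animals or cultures. All p-values below therefore describe the spread among these 6 libraries, which may be technical spread.

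TGF-beta is secreted in a latent form, in which the cut propeptide stays wrapped around the ligand and is tied to a binding protein such as that of Ltbp1. Released ligand binds the kinase receptor encoded by Tgfbr2, which recruits and activates that of Tgfbr1. The latter phosphorylates Smad proteins, Smad3 among them, which enter the nucleus and switch on matrix, contractile and feedback genes. In the liver this pathway is known as a main driver of the change of stellate cells into matrix-producing cells.

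The total was between 8323809 and 10792531 counts a library, and APB-R3 replicate 1 had the lowest. Each count is 1 read near the 3′ end of a transcript, and levels are CPM, counts scaled to a common library total. With such counting the level does not grow with transcript length, so levels of different genes are compared as they stand, as far as the annotated 3′ ends catch their reads. The labelled cell type was checked against marker lists. The 12 liver endothelial markers summed to between 5638 and 6696 CPM a library, the 10 markers of activated stellate cells to between 646.8 and 858 CPM and the 12 of quiescent stellate cells to between 478 and 549 CPM. Dcn alone had 308 CPM on average, the largest part of the quiescent sum. Lrat, the retinol-esterifying enzyme that defines quiescent stellate cells, had 1.68 CPM on average, and Gfap had 4 counts over all 6 libraries. Macrophage markers summed to between 403 and 679 CPM. Hepatocyte markers summed to 93.6 CPM with vehicle replicate 2 and to between 6.61 and 15.9 CPM in the other libraries. In every library the endothelial sum was by far the largest of these. The sums thus do not bear out a culture of stellate cells alone, as the label reads. Every value below is therefore that of a whole mixed culture, in which fewer cells of a type and less RNA per cell cannot be told apart. Their part in the results was not tested.

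Among the ligand genes and among the kinase receptor genes, 1 member was far above its relative: Tgfb2 above Tgfb1, and Tgfbr2 above Tgfbr1. The 250 bases before the start of these 4 genes are printed here so that the letters of the higher and the lower member of each pair can be set side by side. They come from RefSeq on GRCm38.p6, matched by symbol, while the counts were made on GRCm39. Of the 10 genes 7 have an entry in that promoter table. The stretches are chr7:25686752-25687001 on the plus strand, chr1:186705990-186706239 on the minus strand, chr4:47352972-47353221 on the plus strand for the first of 2 listed starts of Tgfbr1, and chr9:116175364-116175613 on the minus strand. Each is written 5′ to 3′ on the strand of its gene. Capitals mark matches, on either strand, to the GC box GGGCGG, the CCAAT box, the TATA box TATAAA, the core TGACG of the cyclic AMP response element, the GC-rich Smad site GGCGCC, the Smad palindrome GTCTAGAC and the AP-1 site TGANTCA.

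Tgfb1: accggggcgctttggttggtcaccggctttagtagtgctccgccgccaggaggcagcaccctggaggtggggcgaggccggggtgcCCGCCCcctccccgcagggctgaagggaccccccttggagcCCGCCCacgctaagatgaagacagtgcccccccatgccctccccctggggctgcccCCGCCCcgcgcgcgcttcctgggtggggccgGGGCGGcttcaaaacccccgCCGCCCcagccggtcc
Tgfb2: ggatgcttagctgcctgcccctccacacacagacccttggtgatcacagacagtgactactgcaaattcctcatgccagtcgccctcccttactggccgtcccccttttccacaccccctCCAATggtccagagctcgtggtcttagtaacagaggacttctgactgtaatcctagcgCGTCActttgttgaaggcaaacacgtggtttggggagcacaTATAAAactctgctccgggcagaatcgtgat
Tgfbr1: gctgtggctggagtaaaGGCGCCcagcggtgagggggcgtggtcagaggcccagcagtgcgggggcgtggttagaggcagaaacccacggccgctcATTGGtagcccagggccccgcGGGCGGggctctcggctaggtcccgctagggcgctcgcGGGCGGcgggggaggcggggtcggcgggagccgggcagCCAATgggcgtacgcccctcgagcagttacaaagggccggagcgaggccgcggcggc
Tgfbr2: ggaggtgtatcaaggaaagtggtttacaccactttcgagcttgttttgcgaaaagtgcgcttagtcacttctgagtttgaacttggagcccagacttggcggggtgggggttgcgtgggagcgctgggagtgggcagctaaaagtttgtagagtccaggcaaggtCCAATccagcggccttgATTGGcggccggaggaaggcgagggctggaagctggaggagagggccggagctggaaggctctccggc

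The Tgfb1 stretch is 75.2% G and C and holds 5 matches to the GC box and no TATA box. The Tgfb2 stretch is 53.6% G and C and holds a TATA box that starts 31 bases before the gene's start, a CCAAT box at 130 bases, a TGACG core at 72 bases and no GC box. The Tgfbr1 stretch, at 74.8% G and C, has 2 GC boxes, 2 CCAAT boxes and 1 GGCGCC. The stretch before the second listed start of Tgfbr1, not printed here, is 52.8% G and C and holds none of the marked motifs. Which start these cells use was not tested. The Tgfbr2 stretch, at 58.4%, has 2 CCAAT boxes and none of the other motifs. Of all 32851 stretches of this length in the table, 12.4% hold TATAAA, 32.7% GGGCGG, 33.8% CCAAT, 17.8% TGACG, 9.59% GGCGCC, 6.75% TGANTCA and 0.167% GTCTAGAC. The last 2 motifs have no match in these 4 stretches, and no marked motif overlaps another in them. A match is a description of letters, not of a bound site.

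Tgfb2 was the leading ligand transcript of the cultures. It took 75.0% ± 3.91 of the summed counts of the 3 ligand genes (SD, n = 6), Tgfb1 took 14.7% ± 2.87 and Tgfb3 took 10.3% ± 2.38. In single libraries the share of Tgfb2 ran from 69.7% (95% Clopper-Pearson interval 66.4% to 72.8%, of 844 ligand counts) in APB-R3 replicate 3 to 79.4% (76.7% to 81.9%, of 946) in vehicle replicate 1. Such intervals cover counting error only. The count of Tgfb2 was between 3.72 and 6.83 times that of Tgfb1 within a library, and between 5.14 and 11.3 times that of Tgfb3. Tgfb2 was thus the highest and Tgfb3 the lowest of the 3 in all 6 libraries. By group, the Tgfb2 share was 77.3% ± 1.77 in vehicle and 72.7% ± 4.36 in APB-R3 (SD, n = 3 each), and the groups overlapped.

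**Figure D1:**
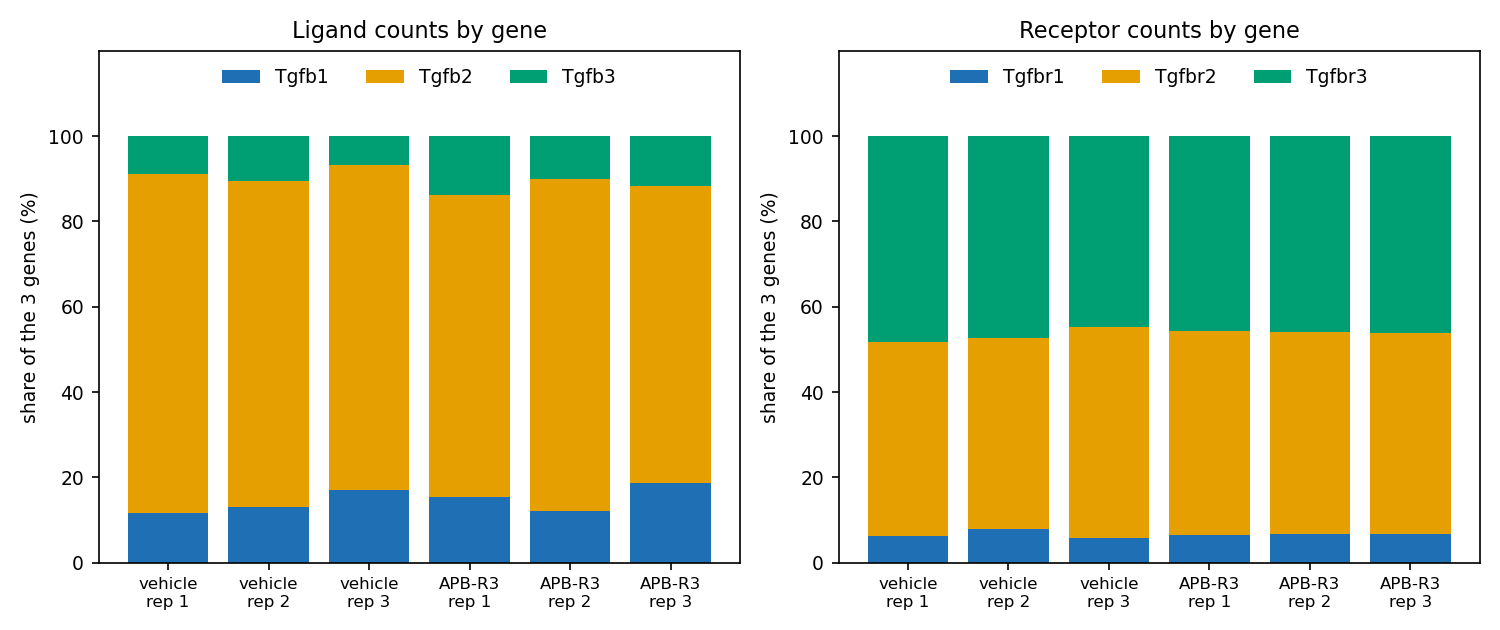
Share of each gene in the summed counts of the 3 ligand genes (left) and of the 3 receptor genes (right), in percent, with 1 stacked bar for each of the 6 libraries. Tgfb2 takes between 69.7% and 79.4% of the ligand counts in every bar, and Tgfbr1 between 5.80% and 7.81% of the receptor counts.

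Tgfb1, the ligand gene best known from liver fibrosis, had 10.5, 10.6 and 15.4 CPM with vehicle replicates 1 to 3 and 12.4, 11.1 and 15.7 CPM with APB-R3 replicates 1 to 3. The replicate numbered 3 was the high library of each group, and the groups overlapped. Its log2 fold change was 0.09 (SE 0.22, 95% interval −0.36 to 0.55), with an adjusted p of 0.9998 in edgeR's quasi-likelihood test. Leaving out vehicle replicate 1 (−0.003) or APB-R3 replicate 3 (−0.05) turned that direction, and without vehicle replicate 3 the value was 0.29. None of the 10 genes passed this test, whose p-values are adjusted over all 12776 genes tested. The share called among all of these was 0%. The intervals are not adjusted for the number of genes.

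Tgfb2, whose protein relies on the co-receptor of Tgfbr3 for tight receptor binding, had 72.0, 62.3 and 68.9 CPM with vehicle and 56.8, 71.2 and 58.4 CPM with APB-R3. The groups overlapped, with APB-R3 replicate 2 among the vehicle libraries and the other APB-R3 libraries below them. The log2 fold change of Tgfb2 was −0.13 (SE 0.12, interval −0.37 to 0.12). It kept its sign in all 13 alternatives, between −0.24 and −0.07, with −0.08 when APB-R3 replicate 1 was left out, −0.07 when replicate 3 of that group was and −0.24 when its replicate 2 was. In the GENCODE annotation the gene shares exon bases with Gm29491 on the opposite strand.

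Tgfb3, the least abundant ligand gene, had 8.15, 8.61 and 6.09 CPM with vehicle and 11.1, 9.27 and 9.73 CPM with APB-R3, so that every APB-R3 library lay above every vehicle library. Of the 10 genes it was the only one placed so, where 4.75% of all tested genes were. Counting both directions, 2 of the 10 genes had groups without overlap, against 8.91% of all tested genes. Its mean was 7.62 ± 1.34 CPM with vehicle and 10.02 ± 0.928 CPM with APB-R3 (SD, n = 3 each). The log2 fold change was 0.39 (SE 0.25, interval −0.13 to 0.90) with an unadjusted p of 0.134 and an adjusted p of 0.9998 in edgeR's test. Without vehicle replicate 3, the lowest library, it was 0.25, and over all 13 alternatives it ran from 0.25 to 0.50. The gene had between 64 and 100 counts a library, and in the GENCODE annotation it shares exon bases with Gm37804 (29 counts over all libraries) and Gm48008 on the opposite strand. Whether the counting used strand is not given in the sources used here.

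**Figure D2:**
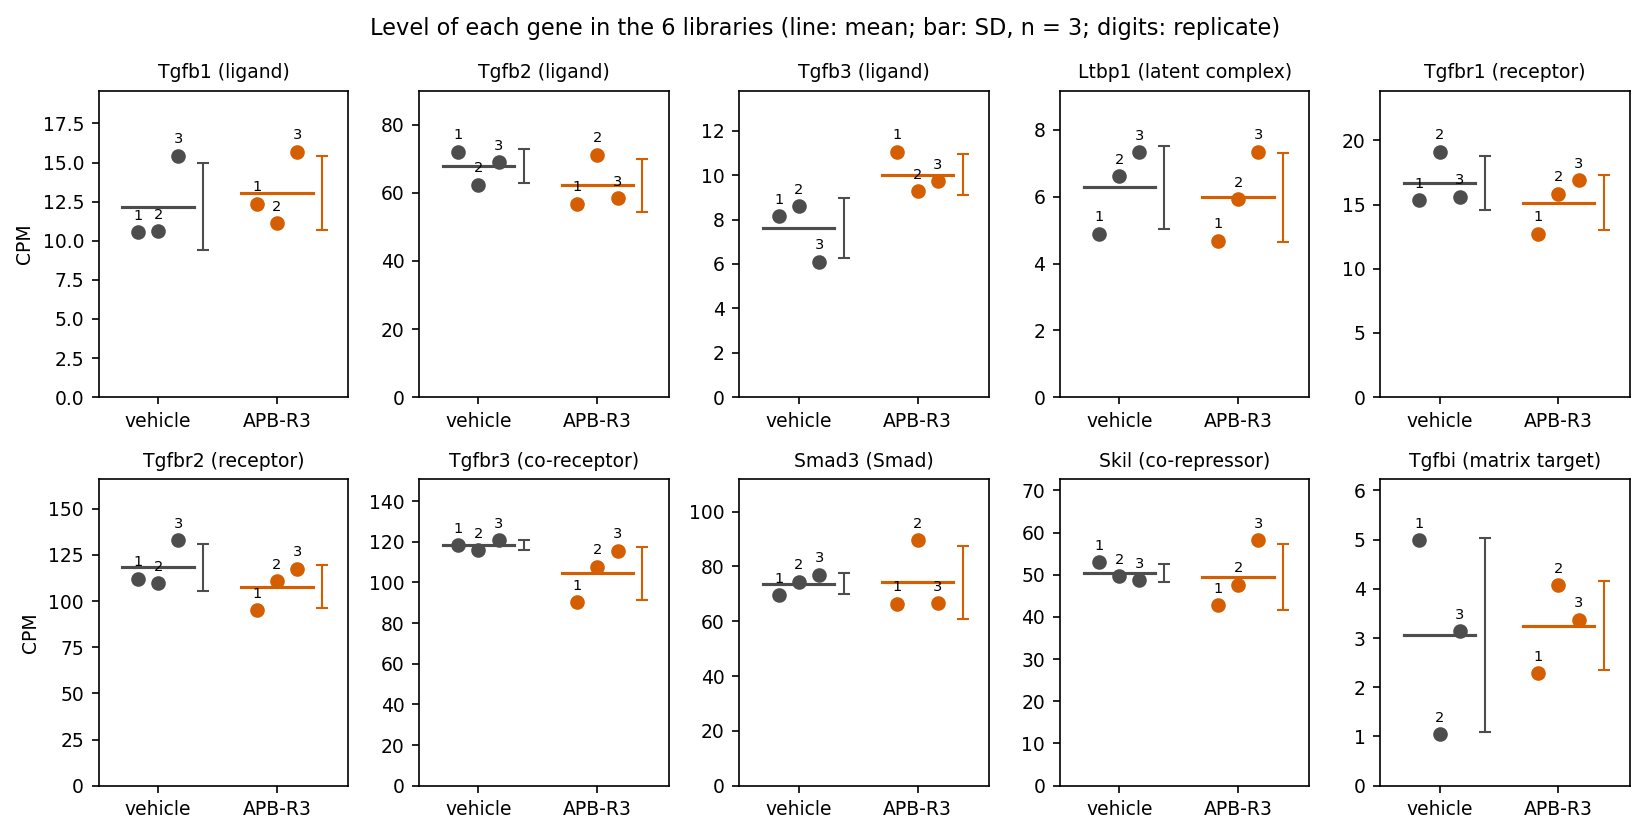
Level of each of the 10 genes in CPM, with 1 point per library marked by its replicate number, the group mean as a line and the SD (n = 3) as a bar. Only Tgfb3 (APB-R3 above) and Tgfbr3 (APB-R3 below) have groups that do not overlap, and APB-R3 replicate 1 is the lowest library in 7 of the 10 panels.

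Ltbp1 encodes a matrix protein that binds the latent complex and stores it on fibrillin fibres. It was low, with 4.89, 6.62 and 7.33 CPM with vehicle and 4.69, 5.93 and 7.35 CPM with APB-R3. As for Tgfb1, the highest library of each group was the one numbered 3. The log2 fold change was −0.07 (SE 0.30, interval −0.70 to 0.56) and became positive when vehicle replicate 3 (0.05) or APB-R3 replicate 1 (0.06) was left out. Lrrc32, which encodes a membrane protein that holds latent TGF-beta at the cell surface, had between 17.5 and 27.5 times the counts of Ltbp1 within a library. Thus the membrane tether had far more transcripts than this matrix tether in all 6 libraries. Of the other Ltbp genes, Ltbp2, Ltbp3 and Ltbp4 had 4.29, 16.9 and 17.2 CPM on average, and Lrrc32 had 130 CPM.

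The receptor genes were led by Tgfbr2 and Tgfbr3, at almost the same level. Tgfbr2 took 47.0% ± 1.62 of the summed receptor counts, Tgfbr3 46.4% ± 1.20 and Tgfbr1 6.63% ± 0.678 (SD, n = 6). Tgfbr2 was above Tgfbr3 in 4 of 6 libraries, so their order was not settled beyond the spread. Both were the highest of the 10 genes, at level percentiles of 86.7 and 86.6 among all tested genes. The count of Tgfbr2 was between 5.74 and 8.51 times that of Tgfbr1 within a library.

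Tgfbr2, the ligand-binding kinase, had 112, 109.7 and 133 CPM with vehicle and 94.9, 111 and 117 CPM with APB-R3. The highest library was vehicle replicate 3, the lowest APB-R3 replicate 1, and the groups overlapped. Its log2 fold change was −0.14 (SE 0.11, interval −0.36 to 0.08). It stood at −0.05 without vehicle replicate 3, at −0.06 without APB-R3 replicate 1 and at −0.19 without APB-R3 replicate 3. Vehicle replicate 3 and APB-R3 replicate 1 also had the highest and the lowest summed endothelial markers, at 6696 and 5638 CPM. The part of endothelial RNA in the log2 fold change was not tested.

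Tgfbr1, the signalling kinase, had 15.3, 19.1 and 15.6 CPM with vehicle and 12.7, 15.8 and 16.9 CPM with APB-R3. Vehicle replicate 2 was highest and APB-R3 replicate 1 lowest, with overlap between the groups. Its log2 fold change was −0.14 (SE 0.19, interval −0.53 to 0.25), and leaving out vehicle replicate 2 or APB-R3 replicate 1 brought it to −0.02 and −0.04. Without APB-R3 replicate 3 it was −0.21.

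Tgfbr3 encodes betaglycan, a co-receptor without a kinase that presents ligand to the kinase receptors. It had 118, 116 and 121 CPM with vehicle and 90.2, 107.7 and 116 CPM with APB-R3. Every APB-R3 library lay below every vehicle library, the nearest pair at 115.5 and 115.9 CPM, which holds for 4.16% of all tested genes. The vehicle libraries differed little (SD 2.41 CPM) and the APB-R3 libraries more (SD 13.0 CPM, n = 3 each). As for Tgfbr2, vehicle replicate 3 was the highest library and APB-R3 replicate 1 the lowest, and the part of endothelial RNA was not tested. The log2 fold change was −0.18 (SE 0.10, interval −0.40 to 0.03), with an unadjusted p of 0.0892 and an adjusted p of 0.9998 in edgeR's test. It was −0.10 without APB-R3 replicate 1, −0.21 without replicate 2 of that group and −0.25 without its replicate 3. The gene shares exon bases with Gm43422 on the same strand in the GENCODE annotation. The summed level of the 3 receptor genes was between 245 and 269 CPM with vehicle and between 198 and 249.8 CPM with APB-R3, so the groups overlapped.

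**Figure D3:**
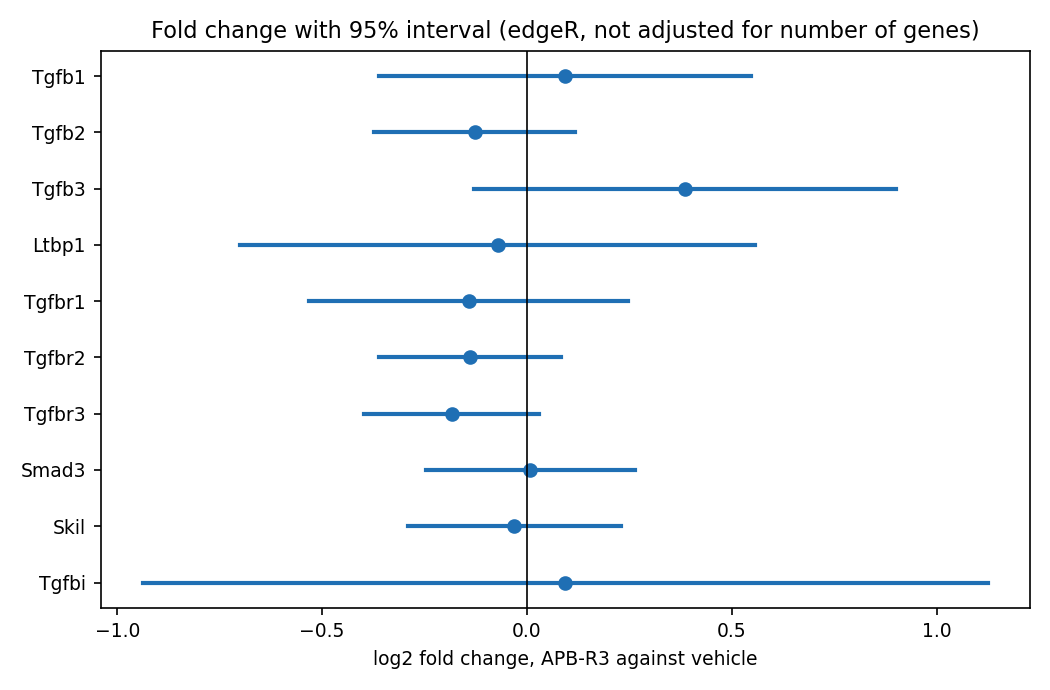
Log2 fold change of each of the 10 genes, APB-R3 against vehicle (points), with the 95% interval from edgeR's quasi-likelihood fit (lines). All 10 intervals include 0, and the widest, that of Tgfbi, runs from −0.94 to 1.12.

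Smad3, the transcription factor that carries the signal to matrix genes, had 69.5, 74.4 and 77.0 CPM with vehicle and 66.4, 89.5 and 66.6 CPM with APB-R3. The highest and the lowest library were both in APB-R3. Its log2 fold change was 0.01 (SE 0.12, interval −0.25 to 0.26), the smallest in size of the 10 in that fit. The sign of Smad3 was negative when vehicle replicate 1 (−0.04) or APB-R3 replicate 2 (−0.16) was left out. The count of Smad3 was between 1.78 and 2.56 times that of Smad2, the other receptor-activated Smad of the pathway.

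Skil encodes SnoN, a co-repressor that binds Smads and is itself switched on by TGF-beta as feedback. It had 52.9, 49.7 and 48.7 CPM with vehicle and 42.8, 47.6 and 58.2 CPM with APB-R3, where the extremes of all 6 libraries again lay. Its log2 fold change was −0.03 (SE 0.13, interval −0.29 to 0.23), or 0.05 without APB-R3 replicate 1 and 0.0004 without vehicle replicate 1. The count of Skil was between 0.464 and 0.597 times that of its relative Ski.

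Tgfbi, a secreted adhesion protein of the matrix named for its induction by TGF-beta, was the lowest of the 10 and the most variable. It had 52, 11 and 33 counts in vehicle and 19, 44 and 34 in APB-R3, or 4.98, 1.04 and 3.14 CPM and 2.28, 4.08 and 3.37 CPM. Vehicle held both the highest and the lowest library. The coefficient of variation over 6 libraries was 43.7%, where counting alone gives about 17.6% at its mean count. The log2 fold change was 0.09 (SE 0.50, interval −0.94 to 1.12), and it was −0.31 without vehicle replicate 2 and −0.11 without APB-R3 replicate 2. As a ratio of APB-R3 to vehicle, the interval of Tgfbi ran from 0.522 to 2.18, so ratios within that range were not excluded at this depth and spread.

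Ordered by mean level over the 6 libraries, the genes were Tgfbr2 (113 CPM), Tgfbr3 (111 CPM), Smad3 (73.9 CPM), Tgfb2 (64.9 CPM), Skil (50.0 CPM), Tgfbr1 (15.9 CPM), Tgfb1 (12.6 CPM), Tgfb3 (8.82 CPM), Ltbp1 (6.13 CPM) and Tgfbi (3.15 CPM). The ranges of neighbours in this order overlapped except between Tgfbr3 and Smad3 and between Skil and Tgfbr1. Tgfb2 was above Skil, Tgfbr1 above Tgfb1 and Tgfb1 above Tgfb3 within each of the 6 libraries all the same. Smad3 was above Tgfb2, Tgfb3 above Ltbp1 and Ltbp1 above Tgfbi in 5 of 6. The gap between Skil and Tgfbr1, of 3.14 times, was the largest between neighbours.

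Most of the 10 genes shared a low library. APB-R3 replicate 1 had the lowest CPM of the 6 libraries for 7 of the 10 genes. Of all tested genes, 21.6% had their lowest value there and 19.5% their highest. The summed level of the 10 genes was 394 CPM in that library and between 458 and 496 CPM in the other 5. Tgfb3 went the other way and was highest there. Tgfb1 was lowest in vehicle replicate 1 and Tgfbi in vehicle replicate 2. Of the 10 genes, 6 had a log2 fold change below 0, where 49.3% of all tested genes did, and the median was −0.05 beside 0.003 over all tested genes. That share is near the background. Leaving out APB-R3 replicate 1 gave 4 of 10 (median 0.06), vehicle replicate 3 gave 5 of 10 (median −0.007) and any one of the others 7 or 8 of 10 (median −0.14 to −0.03). APB-R3 replicate 1 also had the lowest total count and the lowest summed markers of liver endothelium (5638 CPM, the next library at 5947), activated stellate cells (646.8, the next at 712), hepatocytes (6.61, the next at 8.85) and portal fibroblasts (57.8, the next at 64.6). Its summed markers of quiescent stellate cells (539.5 CPM), macrophages (469), cholangiocytes (24.7), platelets (32.6), neutrophils (3.12) and lymphocytes (0.481) were not the lowest. The part of the total count and of these marker sums in the values above was not tested.

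The other genes of the pathway, a list of 66 symbols of which 63 were tested, had 30 positive and 33 negative log2 fold changes. None of the 63 passed edgeR's test at an adjusted p under 0.05, and their median was −0.01 beside the 0.003 of all tested genes. At an unadjusted p under 0.05 there were 4, where 3.33% of all tested genes were. That count was 9 when APB-R3 replicate 3 was left out, 7 when APB-R3 replicate 2 was, 3 to 5 for any other library, and 8 with the replicate block. In 1 of the 63 the APB-R3 libraries all lay above the vehicle libraries and in 3 below, together 4 genes, where 4.75%, 4.16% and 8.91% of all tested genes were so placed.

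**Figure D4:**
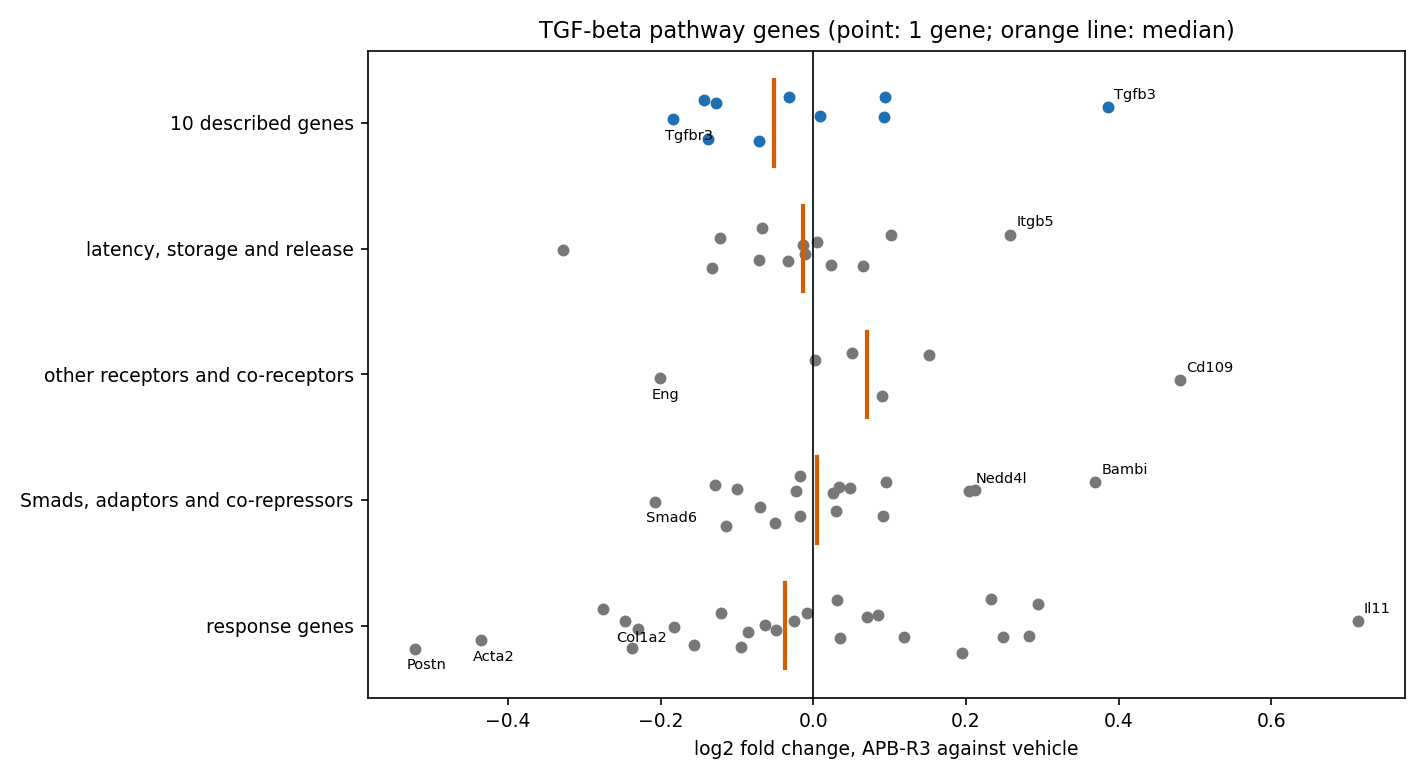
Log2 fold change, APB-R3 against vehicle, of the 10 described genes (blue) and of the 63 other tested pathway genes in 4 groups (grey), with the median of each group as an orange line. The medians lie between −0.05 and 0.07, and no gene passed the test over all genes.

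Of the genes for storage and release of latent TGF-beta, 13 of 16 were tested, 5 positive and 8 negative, with 0 called. Bgn, a proteoglycan that binds TGF-beta in the matrix, had 680 ± 34.8 CPM with vehicle and 628 ± 25.3 CPM with APB-R3, with no overlap and a log2 fold change of −0.12 (SE 0.08). Without vehicle replicate 2 it was −0.07. Lrrc32 had 136 ± 6.38 and 125 ± 17.8 CPM (−0.13, SE 0.11), and leaving out APB-R3 replicate 1, vehicle replicate 2 or APB-R3 replicate 2 gave −0.03, −0.08 and −0.23 in turn. Itgb5, a beta chain of the integrins that pull ligand out of the latent complex, had 11.7 ± 2.19 and 14.0 ± 3.21 CPM (0.26, SE 0.22), and its log2 fold change ran from 0.067 without APB-R3 replicate 3 to 0.42 without vehicle replicate 1. Itgb1 was the most abundant of the group at 1218 ± 75.9 and 1164 ± 121 CPM (−0.07, SE 0.09). The beta chains best known for activating latent TGF-beta were hardly counted, with 10 counts of Itgb6 and 11 of Itgb8 over all 6 libraries.

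The 6 other receptor and co-receptor genes were 5 positive and 1 negative, with 0 called. Eng, the endothelial co-receptor endoglin, was the most abundant at 465 ± 30.1 CPM with vehicle and 407 ± 83.8 CPM with APB-R3, with a log2 fold change of −0.20 (SE 0.11). Leaving out APB-R3 replicates 1, 2 or 3 gave −0.12, −0.13 and −0.37 for Eng, and the value was −0.06 without both vehicle replicate 2 and APB-R3 replicate 1. Cd109, a membrane protein that binds TGF-beta and dampens its signal, had 1.75 ± 1.02 and 2.46 ± 0.712 CPM (0.48, SE 0.55). Leaving out vehicle replicate 2, APB-R3 replicate 1 or vehicle replicate 3 gave 0.16, 0.23 and 1.02 for Cd109. Acvr1, a related type I receptor, had 60.7 ± 4.89 and 64.7 ± 7.31 CPM (0.09, SE 0.12).

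The 18 genes of Smads, adaptors and co-repressors were 9 positive and 9 negative with 0 called. Bambi, a decoy receptor without a kinase, had 12.5 ± 1.72 CPM with vehicle and 16.2 ± 5.26 CPM with APB-R3 (0.37, SE 0.22). Leaving out APB-R3 replicate 3 gave 0.10 for Bambi, and leaving out APB-R3 replicate 2 gave 0.56. Nedd4l, a ubiquitin ligase that acts on activated Smads, had 53.9 ± 3.16 and 62.2 ± 10.5 CPM (0.20, SE 0.13), or 0.12 with APB-R3 replicate 3 left out and 0.33 with replicate 1 of that group left out. The inhibitory Smad gene Smad6 had 40.1 ± 7.45 and 34.9 ± 3.61 CPM (−0.21, SE 0.14), and leaving out vehicle replicate 3, APB-R3 replicate 2 or vehicle replicate 2 gave −0.067, −0.13 and −0.32 in turn. Fkbp1a, whose protein holds the type I receptor inactive, was the most abundant at 1949 ± 62.7 and 1932 ± 80.1 CPM (−0.02, SE 0.08).

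The 26 response genes were 11 positive and 15 negative with 0 called, and they held all 4 genes at an unadjusted p under 0.05. Acta2, a contractile actin gene that rises when stellate cells are activated, had 131 ± 2.11 CPM with vehicle and 97.2 ± 14.6 CPM with APB-R3, and its log2 fold change was −0.43 (SE 0.11, unadjusted p 0.0008 and adjusted p = 0.9998 in edgeR's test). The groups of Acta2 did not overlap in CPM, so leaving libraries out could not turn its sign. Its log2 fold change was between −0.53 and −0.31 in all 13 alternatives. Its adjusted p passed in none of them, with 0.0523 in edgeR without the low-count filter, 0.0781 with the replicate block, 0.729 in DESeq2 and between 0.626 and 0.9998 in edgeR with 1 library left out. Postn, a matrix protein named here after its values were seen, had 11.7 ± 2.74 and 8.13 ± 0.677 CPM (−0.52, SE 0.24), also without overlap. Col1a2, a chain of type I collagen, had 129 ± 9.94 and 109 ± 16.0 CPM (−0.25, SE 0.11), or −0.16 without APB-R3 replicate 1. Il11, a cytokine that TGF-beta induces in fibroblasts, differed from these in direction, with 6.77 ± 1.71 CPM with vehicle and 11.1 ± 1.37 CPM with APB-R3 (0.71, SE 0.26, unadjusted p 0.0108 and adjusted p = 0.9998 in edgeR's test). Its log2 fold change ran from 0.58 to 0.93 over all 13 alternatives. Ccn2, the most abundant of the group, had 3472 ± 350.0 and 3285 ± 172 CPM (−0.09, SE 0.09). The response genes thus held members with values on both sides of 0, none of which passed over all genes tested.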

How the data were processed

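The authors deposited 1 table of raw counts per library, in whole reads for each gene symbol. Per the labels' protocols, each Lexogen QuantSeq library was made from 500 ng of Trizol-extracted total RNA. Per the submitters' processing notes, bcl2fastq 2.20.0.422, fastp, STAR and HTSeq were used on GRCm39. Not given in the sources used here are other versions, the annotation, the strand setting and the handling of molecular identifiers, so counts may hold copies of 1 molecule.

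Groups and replicate numbers come from the sample titles, and the header inside each file carries a number higher by 1. The groups were compared with edgeR 4.0.16 under R 4.3.3, after filterByExpr (minimum count 10, minimum total 15), TMM factors, glmQLFit and glmQLFTest, treatment being the only term. Of 20496 symbols with a count, 12776 were tested, two-sided, with Benjamini-Hochberg adjustment over all of them and a threshold of 0.05. SE is the log2 fold change over the square root of F. Levels are CPM on library totals. DESeq2 1.42.0 and other settings were alternatives, and the scripts were tested on simulated data. No pair of libraries differed by as little as sampling noise (chi-square per degree of freedom from 5.54 to 13.6). The 10 genes and all lists were chosen with earlier results of these data known. Named pathway genes are, per list, the 3 with the smallest p and the one with the highest level. Postn, Itgb6, Itgb8, Ltbp2, Ltbp3, Ltbp4, Smad2 and Ski were named outside this rule, and Dcn as a marker. Exon overlaps come from GENCODE vM21 (GRCm38), used for neighbours only. No batch is labelled.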

Additional observations from a re-analysis of the deposited data

How the results depend on the processing

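In every alternative run, 0 of the 10 genes and 0 of the other pathway genes passed. Without APB-R3 replicate 3, 1 of the 10 genes had an unadjusted p under 0.05 in edgeR's test, beside 674 of 13137 tested genes. No other run had any of the 10 at that level. The number of all genes that edgeR called was 0 (425 at an unadjusted p under 0.05), 20 with no low-count filter and 0 to 1 with 1 library left out, the 1 being without vehicle replicate 3. DESeq2 called 0 (376 unadjusted). Tgfb2, Tgfb3, Tgfbr2 and Tgfbr3 kept their sign throughout. The groups of Tgfb3 and Tgfbr3 did not overlap in CPM, so leaving libraries out could not turn the sign of these 2 genes. With 1 library left out, the log2 fold change ran from −0.049 to 0.29 for Tgfb1, −0.23 to 0.065 for Ltbp1, −0.16 to 0.091 for Smad3, −0.15 to 0.054 for Skil, −0.31 to 0.63 for Tgfbi, −0.12 to 0.0046 for Itgb1, −0.012 to 0.17 for Acvr1, −0.044 to 0.018 for Fkbp1a and −0.16 to 0.0013 for Ccn2. Without both vehicle replicate 2 and APB-R3 replicate 1 the sign turned for Tgfbr1 (0.078), Ltbp1 (0.12), Skil (0.054), Tgfbi (−0.12), Lrrc32 (0.017), Itgb1 (0.055), Cd109 (−0.089), Fkbp1a (0.045) and Ccn2 (0.036). The cause was not tested. TMM-scaled sizes moved no mean level by as much as its SD. Tgfbi was not tested at 5 CPM in 3 libraries.

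With a replicate block edgeR called 0 genes (539 unadjusted), and Smad3 turned to −0.0055. Deviations of same-numbered libraries correlated at 0.02, 0.03 and 0.05, so the numbers were not taken as pairs, although each library correlated best with its own number.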
